A study of Mus musculus with 12 samples.

Results

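A set of 10 genes of the pluripotency network of mouse embryonic stem (ES) cells was followed through 12 teratoma libraries as a reading of undifferentiated cells left in the tumour. They are Pou5f1, Nanog, Zfp42, Esrrb, Klf4, Tfcp2l1, Prdm14, Dppa5a, Tdh and Utf1, chosen by name, and they make up 10 of the 38986 genes listed for each library. Their counts were scaled to the counts per 1000000 of the library total (CPM). The teratomas were grown from R1 mouse ES cells that carried the pEZ-LV235 lentiviral vector with a CAG promoter, which is active in most cell types, and the infected cells were kept under puromycin. ET cells held the empty vector, WT cells held Dnmt3L, and the K238R and K412R cells held Dnmt3L in which 1 lysine that can be acetylated was exchanged for arginine. All 4 groups were cultured in FBS-LIF medium, the cells were injected under the skin of 8-week-old male NOD-PrkdcEM1 mice, which are immunodeficient, and the teratomas were taken at day 21. Each group had 3 libraries, 1 from each teratoma. The host is a mouse too, so transcripts of host and graft cannot be told apart.

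Pou5f1 (Oct4) and Nanog are the transcription factors at the centre of the network, and Esrrb, Klf4, Tfcp2l1 and Prdm14 are factors that hold ES cells in the naive state under LIF. Zfp42 (Rex1), Dppa5a, Tdh and Utf1 are genes that ES cells express strongly and most adult tissues do not. A teratoma forms when ES cells differentiate into many tissues after injection, and these genes are switched off in most of the cells on the way. Several of them are not limited to ES cells. Klf4 is also a factor of keratinising and gut epithelium, Esrrb and Tfcp2l1 are also used in differentiated epithelia, and Pou5f1, Nanog, Prdm14 and Utf1 are also transcribed in cells of the germ line. In RNA from a whole tumour, fewer cells of a type and less RNA per cell cannot be told apart.

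Dnmt3l, which the constructs carry, was read first as a check of the labels. ET gave 39, 11 and 137 counts of it, WT 2941, 3643 and 3581, the libraries labelled K238R 35, 20 and 10, and K412R 699, 677 and 463. The libraries labelled K238R did not hold more Dnmt3l than ET (log2 fold change -1.59, standard error 0.71, edgeR quasi-likelihood adjusted p = 0.806), so they are called by their label throughout. Library totals lay between 16957677 and 18546100 counts. By the distance over the 500 genes of largest variance, ET replicate 2 and WT replicate 1 were each other's nearest library, although their labels differ. Where leaving out 1 of them changed a call, the value without it is given.

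The starts of the genes show how unlike the members are as regulatory sequence, and 4 are printed to be read beside the levels. Of the 10 members, 7 have promoter entries in RefSeq (GRCm38.p6), with 10 windows in all, and each window printed here is the 250 bases before the transcript start on the gene's strand. Capitals mark matches, on either strand, to 4 short motifs: the octamer stretch ATGCAAA (bound by Pou5f1), ACAATG (bound by Sox factors), AGGTCA (bound by nuclear receptors such as Esrrb) and CCACCC (bound by Klf factors). Over all 32851 promoter windows of this length, 4.12% held the octamer stretch, 10.7% ACAATG, 14.0% AGGTCA and 28.1% CCACCC. The Nanog window (chr6:122707239-122707488, plus strand) holds the octamer stretch 1 base from ACAATG, and AGGTCA near its far end. The Zfp42 window (chr8:43307010-43307259, minus strand) holds the octamer stretch and 2 copies of CCACCC. Pou5f1 and Nanog have 2 windows each, and the one with the lower coordinates is printed. The Pou5f1 window printed (chr17:35505782-35506031, plus strand) holds AGGTCA and 4 copies of CCACCC, of which 2 overlap. The other Pou5f1 window (chr17:35508557-35508806, plus strand) holds neither of these and 1 copy of ACAATG. The Klf4 window (chr4:55532476-55532725, minus strand) holds none of the 4 motifs and 32 CpG, against a median of 6 over all windows.
Nanog: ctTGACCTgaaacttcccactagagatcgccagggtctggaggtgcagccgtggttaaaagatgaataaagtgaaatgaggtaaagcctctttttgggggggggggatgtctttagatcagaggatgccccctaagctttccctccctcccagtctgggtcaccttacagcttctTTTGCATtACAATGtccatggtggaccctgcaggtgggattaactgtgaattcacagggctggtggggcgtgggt
Zfp42: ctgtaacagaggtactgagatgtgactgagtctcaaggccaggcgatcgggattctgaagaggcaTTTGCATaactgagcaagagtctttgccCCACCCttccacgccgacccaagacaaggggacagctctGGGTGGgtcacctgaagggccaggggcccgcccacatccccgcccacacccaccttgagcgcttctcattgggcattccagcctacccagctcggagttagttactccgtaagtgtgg
Pou5f1: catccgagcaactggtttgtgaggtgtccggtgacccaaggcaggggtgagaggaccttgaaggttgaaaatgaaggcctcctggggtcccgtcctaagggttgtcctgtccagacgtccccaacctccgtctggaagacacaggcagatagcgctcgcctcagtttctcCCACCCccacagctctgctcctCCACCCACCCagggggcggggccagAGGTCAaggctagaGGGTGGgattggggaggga
Klf4: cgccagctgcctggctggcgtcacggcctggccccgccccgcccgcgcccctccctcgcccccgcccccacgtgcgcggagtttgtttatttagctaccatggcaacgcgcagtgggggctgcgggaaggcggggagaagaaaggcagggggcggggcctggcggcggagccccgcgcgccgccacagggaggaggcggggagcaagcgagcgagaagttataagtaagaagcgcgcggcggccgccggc
The CpG count was 3 in the Nanog window, 9 in that of Zfp42 and 8 in that of Pou5f1. Among the 10 windows the octamer stretch was found in those of Nanog and Zfp42 only. A match is a run of letters in this window and nothing more, and binding was not measured.

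Pou5f1 was present in every teratoma and was the most abundant member per length in the mean over the libraries. Its level was 23.4, 30.3 and 49.1 CPM for ET, 24.5, 2.45 and 0.97 CPM for WT, 21.7, 18.2 and 13.4 CPM for the K238R-labelled libraries and 24.6, 21.0 and 17.5 CPM for K412R. WT replicates 2 and 3 stood far below every other library, while WT replicate 1 lay inside the range of ET. The group means were 34.3 ± 13.3 (SD, n = 3), 9.29 ± 13.2, 17.8 ± 4.18 and 21.0 ± 3.56 CPM in the same order. The 2 low WT libraries rest on 44 and 17 counts of Pou5f1, against 246 to 883 in the 10 others. Pou5f1, Nanog and Dppa5a have near-identical copies elsewhere in the genome, so a share of their reads may have been assigned to a copy or the reverse.

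Nanog read 8.19, 10.1 and 17.7 CPM for ET, 5.85, 0.95 and 0.68 CPM for WT, 8.47, 7.06 and 4.02 CPM for the K238R-labelled libraries and 8.02, 5.88 and 6.79 CPM for K412R. Every WT library lay below every ET library and below every K412R library, and WT replicates 2 and 3 were again the lowest of all. Its counts in these 2 libraries were 17 and 12. WT replicate 1 and K412R replicate 2 had 104 counts each, so their order rests on the library totals alone.

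Zfp42, a zinc finger gene used as a marker of the naive state, varied 90.0-fold between its highest and lowest library. Its level was 6.25, 2.30 and 15.4 CPM for ET, 4.83, 0.33 and 0.17 CPM for WT, 6.96, 5.39 and 2.23 CPM for the K238R-labelled libraries and 2.23, 4.01 and 2.41 CPM for K412R. The groups overlapped in every comparison, because ET replicate 2 was low and WT replicate 1 was not.

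Dppa5a, which encodes an RNA-binding protein of ES cells, and Tdh, which encodes the threonine dehydrogenase that mouse ES cells rely on, ran in parallel with Zfp42. Dppa5a read 5.80, 3.36 and 16.0 CPM for ET, 5.57, 0.22 and 0.29 CPM for WT, 6.20, 5.50 and 1.41 CPM for the K238R-labelled libraries and 3.62, 5.31 and 2.81 CPM for K412R. Tdh read 4.72, 2.59 and 10.7 CPM for ET, 3.54, 0.28 and 0.23 CPM for WT, 4.10, 3.72 and 1.19 CPM for the K238R-labelled libraries and 1.67, 3.39 and 1.63 CPM for K412R. For both genes WT replicates 2 and 3, with 4 or 5 counts each, lay below all other libraries, and replicate 3 was the lowest of the libraries labelled K238R.

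Utf1, a chromatin-bound factor of ES cells and early germ cells, had the widest span. It read 4.89, 3.89 and 12.7 CPM for ET, 5.23, 0.56 and 0.06 CPM for WT, 5.82, 4.39 and 2.39 CPM for the K238R-labelled libraries and 4.29, 5.94 and 3.37 CPM for K412R. Its lowest value, in WT replicate 3, is a single count, so the ratio of its ends has little precision.

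Prdm14, which represses differentiation genes in ES cells and is needed for the germ line, was close to the limit of detection. ET gave 6, 1 and 26 counts of it, WT 5, 0 and 1, the libraries labelled K238R 16, 9 and 1, and K412R 1, 3 and 4. The 0 counts of WT replicate 2 allow a level of up to 0.167 CPM (3 counts of its total, counting error only), and the other libraries reached at most 1.45 CPM. Prdm14 was therefore not tested, and 9 of the 10 members passed edgeR's filter on low counts.

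Esrrb, Tfcp2l1 and Klf4 had another pattern, and none of them was lowest in both WT replicates 2 and 3. Esrrb, an orphan nuclear receptor, read 6.42, 5.54 and 13.5 CPM for ET, 7.59, 6.02 and 4.62 CPM for WT, 8.25, 7.45 and 5.05 CPM for the K238R-labelled libraries and 5.35, 5.37 and 3.70 CPM for K412R, so that its lowest library was K412R replicate 3. Tfcp2l1, a factor that maintains self-renewal under LIF, read 10.1, 11.03 and 17.2 CPM for ET, 9.50, 9.64 and 8.21 CPM for WT, 9.49, 13.0 and 8.09 CPM for the K238R-labelled libraries and 10.8, 8.14 and 10.8 CPM for K412R. Klf4 read 15.6, 17.7 and 12.6 CPM for ET, 17.4, 15.1 and 14.5 CPM for WT, 16.3, 18.7 and 16.1 CPM for the K238R-labelled libraries and 18.5, 24.1 and 20.6 CPM for K412R. Klf4 was lowest in ET replicate 3, the library in which the other 9 members were highest, and every K412R library lay above every ET and WT library. From highest to lowest library, Esrrb spanned 3.65-fold, Tfcp2l1 2.12-fold and Klf4 1.92-fold.

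**Figure D1:**
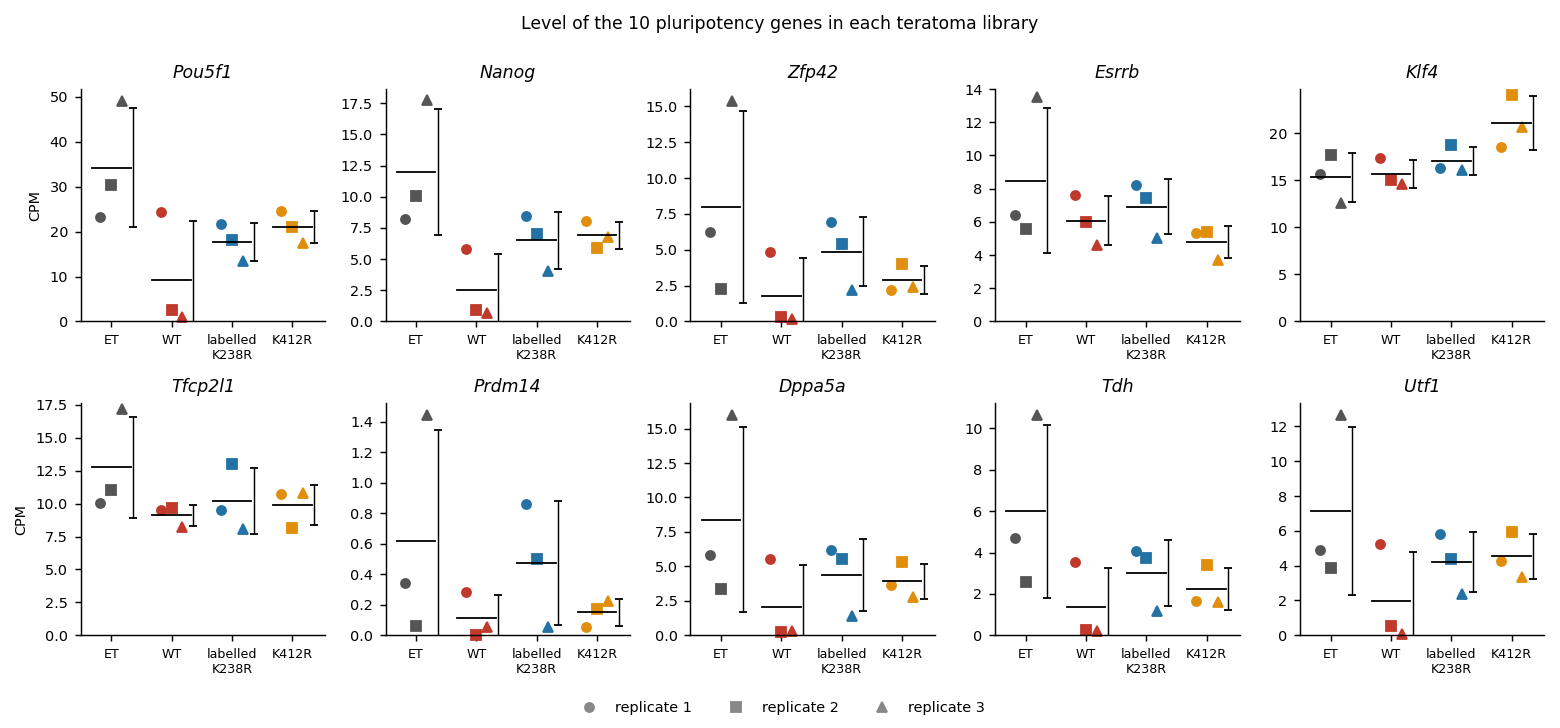
Level of each of the 10 members in CPM (linear axis from 0) in the 12 libraries, by group, with symbols for the replicate number, a line at the group mean and a bar for 1 SD either side of it (n = 3, cut at 0). In 6 panels WT replicates 2 and 3 sit below all other libraries while WT replicate 1 does not, and in the panel of Klf4 the 3 K412R libraries, between 18.5 and 24.1 CPM, lie above all ET and WT libraries.

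Read across the members, 6 of the 10 (Pou5f1, Nanog, Zfp42, Dppa5a, Tdh and Utf1) had WT replicates 2 and 3 below the 10 other libraries, a pattern found in 17.2% of the 16417 genes with a mean of at least 1 CPM. ET replicate 3 was the highest library for 9 of the 10 members, against 21.7% of those genes. WT replicate 1 lay within the range of the ET libraries for 8 of the 10 members, against 60.6% of those genes, and above the other WT libraries for 9 of the 10, against 48.3%. These patterns were read from the same values and carry no test. WT replicate 1 exceeded the mean of WT replicates 2 and 3 by 14.3-fold for Pou5f1, 7.16-fold for Nanog, 19.1-fold for Zfp42, 21.9-fold for Dppa5a, 14.0-fold for Tdh and 17.01-fold for Utf1. For Esrrb, Klf4 and Tfcp2l1 the same ratio was 1.43, 1.17 and 1.06. Dnmt3l in WT replicate 1 was 165 CPM, against 203 and 204 CPM in WT replicates 2 and 3.

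Summed over the 10 members, the level was 113 ± 46.2 CPM (SD, n = 3) in ET, 49.9 ± 29.9 CPM in WT, 75.3 ± 18.7 CPM in the libraries labelled K238R and 77.4 ± 6.91 CPM in K412R. The sum was 85.7, 86.9 and 166 CPM for ET, 84.2, 35.5 and 29.8 CPM for WT, 88.2, 84.0 and 53.9 CPM for the K238R-labelled libraries and 79.1, 83.3 and 69.8 CPM for K412R. In WT replicates 2 and 3 most of the sum came from Klf4 (15.1 and 14.5 CPM), Tfcp2l1 (9.64 and 8.21) and Esrrb (6.02 and 4.62). K412R was the tightest group. Every WT sum lay below every ET sum, by the narrow margin of WT replicate 1 to ET replicate 1, and WT overlapped the libraries labelled K238R and stood around those of K412R through its replicate 1.

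Levels between genes were compared per kilobase of the longest protein-coding transcript (GENCODE M21). In the mean over the 12 libraries, Pou5f1 stood at 15.1 CPM per kilobase, Dppa5a at 7.55, Klf4 at 5.70, Utf1 at 3.63, Nanog at 3.16, Zfp42 at 2.38, Tdh at 1.67, Esrrb at 1.53, Tfcp2l1 at 1.13 and Prdm14 at 0.13. Pou5f1 lay above Dppa5a in 12 of 12 libraries, and Tfcp2l1 above Prdm14 in 12 of 12. Dppa5a lay above Klf4 in 6 of 12, Utf1 above Nanog in 8 of 12 and Tdh above Esrrb in 8 of 12, so these neighbours did not keep their order. In ET the order began with Pou5f1 (25.2 CPM per kilobase), Dppa5a (13.6) and Utf1 (5.83), and in the WT mean with Pou5f1 (6.82), Klf4 (5.17) and Dppa5a (3.27). That WT order rests on replicate 1. In WT replicates 2 and 3 Klf4 (4.97 and 4.80 CPM per kilobase) lay above Pou5f1 (1.80 and 0.71), and Dppa5a (0.36 and 0.46) lay below Esrrb (1.40 and 1.07) and Tfcp2l1 (1.04 and 0.89).

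WT against ET asks whether extra Dnmt3L goes with less or more residual pluripotency transcript in the tumour. By edgeR's quasi-likelihood test 0 of the 9 tested members passed an adjusted p of 0.05, beside 0.0489% of the 18405 genes tested (9 genes). At an unadjusted p of 0.05, 4 members were lower in WT, beside 15.1% of all genes. The study asked for a 2-fold change and an unadjusted p under 0.05, and its methods name DESeq2. With these thresholds on the edgeR fit, the same 4 members were lower (Pou5f1, Nanog, Zfp42 and Tdh), beside 2.76% of all genes. With DESeq2's values 4 members passed these thresholds too. DESeq2 called 1 member, Nanog (adjusted p = 0.00831), beside 11.6% of the genes to which it gave an adjusted p, so that 1 of 9 is near the background. The median log2 fold change of the 9 members was -1.89, against -0.01 over all genes tested, and 8 of the 9 were below 0.

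Nanog had the largest difference between WT and ET, a log2 fold change of -2.26 (standard error 0.62, edgeR unadjusted p = 0.00354, adjusted p = 0.104), that is 4.80 times less in WT. Zfp42 stood at -2.17 (standard error 0.95, adjusted p = 0.159), Tdh at -2.15 (0.87, adjusted p = 0.140), Dppa5a at -2.06 (0.97, adjusted p = 0.181), Pou5f1 at -1.89 (0.80, adjusted p = 0.150) and Utf1 at -1.88 (0.88, adjusted p = 0.178), all from the same edgeR fit. Esrrb (-0.47, standard error 0.34), Tfcp2l1 (-0.46, standard error 0.23) and Klf4 (0.06, standard error 0.15) were nearer to 0. Nanog and Tfcp2l1 were the 2 members with every WT library below every ET library, a separation found in 11.4% of all genes tested.

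**Figure D2:**
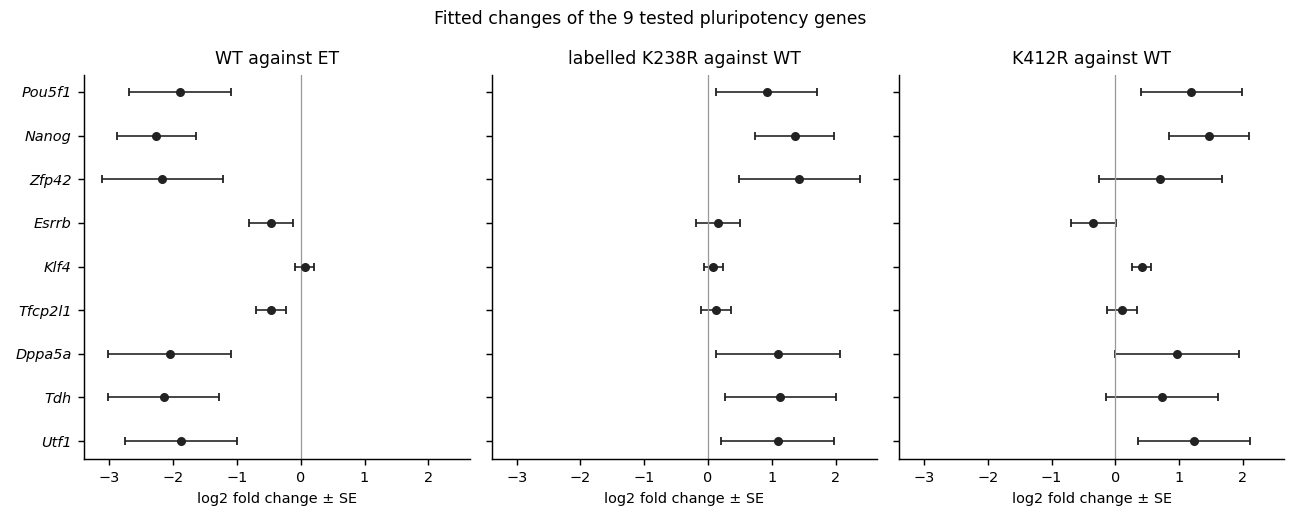
Log2 fold change with its standard error from edgeR for the 9 tested members, in WT against ET, the libraries labelled K238R against WT, and K412R against WT (3 libraries per group). The points of 6 members lie near -2 in WT against ET, from -1.88 to -2.26, and Esrrb, Klf4 and Tfcp2l1 lie between -0.47 and 0.06.

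Leaving out single libraries moved these values, and WT replicate 1 moved them furthest. Without WT replicate 1, edgeR called 6 of 9 members lower in WT: Pou5f1 (log2 fold change -4.28, adjusted p = 0.00361), Nanog (-3.83, adjusted p = 0.00520), Zfp42 (-4.91, adjusted p = 0.0337), Dppa5a (-4.98, adjusted p = 0.0335), Tdh (-4.49, adjusted p = 0.0334) and Utf1 (-4.47, adjusted p = 0.0320). The share of all genes called rose to 6.97% in that fit. Without ET replicate 2, edgeR called Nanog alone among the members (-2.37, adjusted p = 0.0338), and 30.8% of all genes. Without ET replicate 3 no member was called, and the log2 fold changes of the 6 genes lay nearer to 0, from -1.85 for Nanog to -1.16 for Utf1. The 2-fold count fell from 4 members to 1 without ET replicate 3, and likewise without WT replicate 2 or WT replicate 3. WT replicate 1 carries the WT label and a Dnmt3l transcript like that of its group, and no source used here marks it as a failed sample, so the values with it stand as the result. The text of the study speaks of an outlier in its control group and does not name the library.

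**Figure D3:**
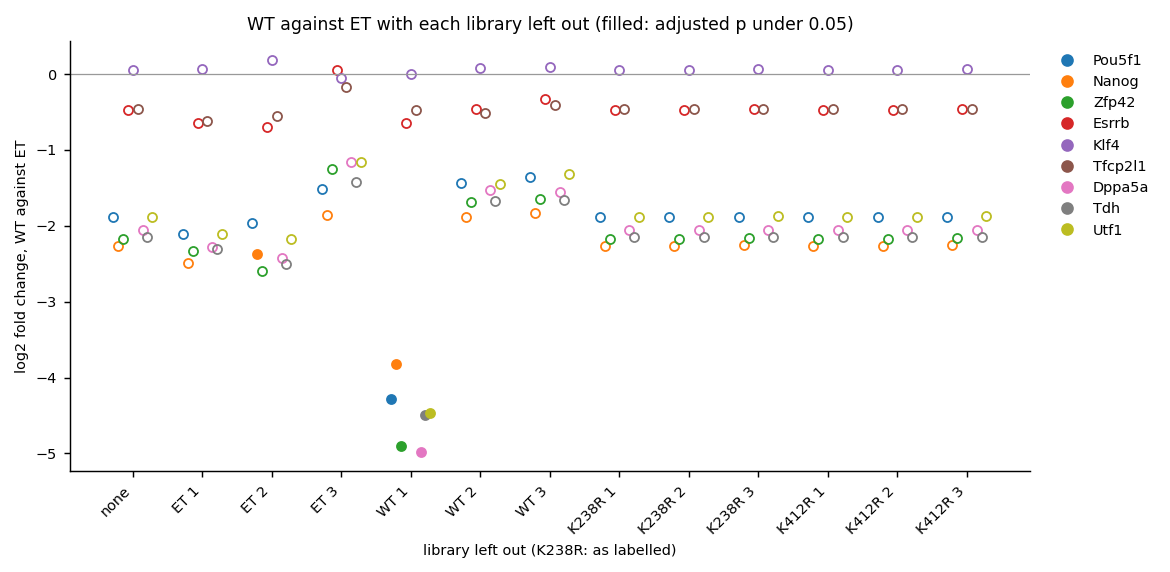
Log2 fold change of WT against ET for the 9 tested members with no library or 1 named library left out (x axis), from edgeR, filled where the adjusted p is under 0.05. The points of 6 members drop to between -3.83 and -4.98 without WT replicate 1 and move up without ET replicate 3.

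The libraries labelled K238R against WT ask whether the K238R construct gives other levels than WT, although these libraries held Dnmt3l no higher than ET. By edgeR 0 of 9 members passed the adjusted threshold, beside 0.223% of all genes tested, and DESeq2 called 0, beside 4.27%. At the unadjusted threshold 1 member, Nanog, was higher, beside 7.93% of all genes, and it also passed the 2-fold criterion, beside 1.67%. Nanog stood at 1.36 (standard error 0.62, edgeR unadjusted p = 0.0491, adjusted p = 0.283). Zfp42 had the largest value, 1.43 (standard error 0.95, adjusted p = 0.427 from edgeR), while Esrrb, Tfcp2l1 and Klf4 lay between 0.08 and 0.15. The median over the 9 members was 1.09, against 0.00 over all genes tested, and no member had all libraries of 1 group above or below those of the other, beside 12.7% of all genes with the labelled K238R libraries above and 11.3% with them below. Without WT replicate 1, edgeR called Pou5f1 (3.31, adjusted p = 0.0241) and Nanog (2.93, adjusted p = 0.0393), and 0.303% of all genes.

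K412R against WT asks the same of K412R, which held Dnmt3l at 34.4 ± 7.29 CPM (SD, n = 3) against 191 ± 22.2 CPM in WT. Again 0 of 9 members passed the adjusted threshold by edgeR, beside 2.04% of all genes tested, and DESeq2 called 0, beside 9.67%. Unadjusted, 2 members were higher, Nanog and Klf4, beside 10.2% of all genes, and Nanog alone passed the 2-fold criterion, beside 1.66%. Both were also the members with every K412R library above every WT library, beside 14.4% of all genes. For Nanog this separation is by library total only, since WT replicate 1 and K412R replicate 2 had 104 counts each. Nanog stood at 1.47 (standard error 0.62, edgeR unadjusted p = 0.0363, adjusted p = 0.190) and Klf4 at 0.41 (standard error 0.15, edgeR unadjusted p = 0.0174, adjusted p = 0.139). Pou5f1 stood at 1.19 (standard error 0.79), Utf1 at 1.23 (0.88), Dppa5a at 0.96 (0.97), Tdh at 0.73 (0.88) and Zfp42 at 0.71 (0.96), each within 2 standard errors of 0. Esrrb was the member below 0 (-0.34, standard error 0.35). The median was 0.73, against 0.01 over all genes tested. Without WT replicate 1, edgeR called Pou5f1 (3.58, adjusted p = 0.00631), Nanog (3.03, adjusted p = 0.0125), Dppa5a (3.88, adjusted p = 0.0465) and Utf1 (3.82, adjusted p = 0.0332), and 5.37% of all genes. The comparisons of ET, the libraries labelled K238R and K412R with WT share the 3 WT libraries, so 1 low or high WT library moves all of them.

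Against ET, neither the libraries labelled K238R nor K412R gave a call. For the libraries labelled K238R, 0 of 9 members passed the adjusted threshold by edgeR, beside 0% of all genes, 0 passed unadjusted, beside 5.61%, 0 passed the 2-fold criterion, beside 0.951%, and DESeq2 called 0, beside 0.0761%. Every library labelled K238R lay below every ET library for Pou5f1 (log2 fold change -0.97, standard error 0.77), a separation found in 4.24% of all genes. The median over the 9 members was -0.79, against -0.02 over all genes tested. For K412R, 0 members passed the adjusted threshold by edgeR, beside 0% of all genes, and DESeq2 called 0, beside 0.524%. Unadjusted, Klf4 was higher (0.47, standard error 0.15, edgeR unadjusted p = 0.00835, adjusted p = 0.464), beside 4.38% of all genes, and Esrrb lower (-0.81, standard error 0.35, edgeR unadjusted p = 0.0377, adjusted p = 0.613), beside 3.53%. Neither passed the 2-fold criterion, beside 1.57% of all genes. Every K412R library lay above ET for Klf4, beside 5.01% of all genes, and below ET for Nanog and Esrrb, beside 5.74%. The test of any difference among the 4 groups gave 0 members at the adjusted threshold by edgeR, beside 0.168% of all genes, 2 at the unadjusted one (Nanog and Klf4), beside 22.2%, and 1 with DESeq2, beside 11.4%, which is again near the background for 1 of 9.

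Whether the members were high in the same teratomas was measured by the correlation of log2 CPM with Pou5f1 over the 12 libraries. Nanog and Utf1 (Pearson r = 0.98 each, permutation p = 2e-05 each), Dppa5a (r = 0.93, permutation p = 0.00018), Tdh (r = 0.91, permutation p = 0.00012) and Zfp42 (r = 0.91, permutation p = 0.00025) passed Benjamini-Hochberg adjustment over the 9 relations (adjusted p from 9e-05 to 0.00045). Prdm14 (r = 0.57, permutation p = 0.0473, adjusted 0.0709), Tfcp2l1 (r = 0.46), Esrrb (r = 0.41) and Klf4 (r = 0.17) did not. The share of all genes with such an r was not counted. Fau (r = 0.976) and Rplp2 (r = 0.969), genes of ribosomal proteins outside the lists, stood above Dppa5a, Tdh and Zfp42. A high r with Pou5f1 is thus not shown to be particular to the members. By Spearman's rho 1 of the 9 passed, Nanog (rho = 0.81, permutation p = 0.00233, adjusted 0.0210), while Utf1 had rho = 0.69, Tdh 0.68, Dppa5a 0.65 and Zfp42 0.57 (adjusted permutation p from 0.0556 to 0.0926).

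WT replicates 2 and 3 were the libraries farthest from the median of Pou5f1 and form a cluster of their own, and they carry much of the relation. Over the 10 other libraries r with Pou5f1 was 0.92 for Nanog (permutation p = 0.00091, adjusted 0.00819), 0.85 for Utf1 (adjusted permutation p = 0.0290), 0.80 for Dppa5a and 0.76 for Tdh (both adjusted 0.0320), 0.73 for Tfcp2l1 (adjusted 0.0417) and 0.72 for Esrrb (adjusted 0.0423). For Zfp42 it was 0.62 and no longer passed (permutation p = 0.0595, adjusted 0.0766), and for Klf4 it was -0.42 (permutation p = 0.223). By Spearman's rho over these 10 libraries 0 of the 9 relations passed, and Nanog had rho = 0.67 (permutation p = 0.0393, adjusted 0.354). Taken as deviations from the group means, r was 0.96 for Nanog, 0.96 for Utf1, 0.87 for Dppa5a, 0.86 for Tdh, 0.87 for Zfp42 and 0.17 for Klf4. These deviations still hold the gap between WT replicate 1 and WT replicates 2 and 3. Over the 9 libraries outside WT, r was 0.96 for Nanog, 0.85 for Utf1 and 0.80 for Dppa5a. For Tdh it was 0.76, for Zfp42 0.62 and for Klf4 -0.42, with no test. The labels name no batch within which the relation could be read.

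**Figure D4:**
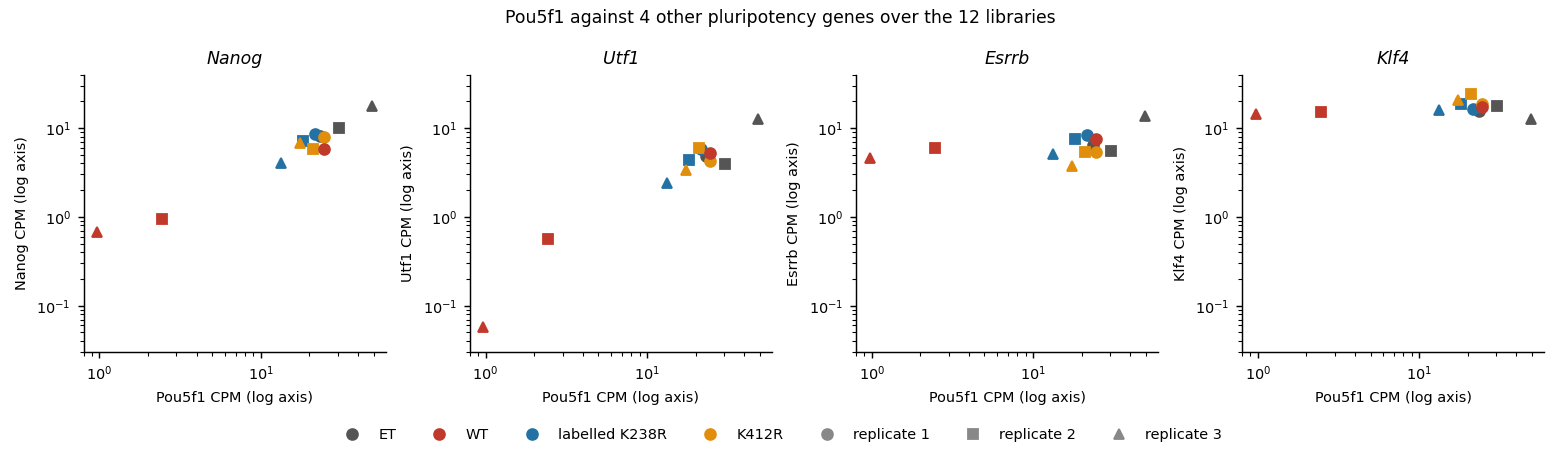
Level of Nanog, Utf1, Esrrb and Klf4 against Pou5f1 in the 12 libraries, in CPM on log axes, coloured by group with symbols for the replicate number. Nanog (r = 0.98) and Utf1 (r = 0.98) follow Pou5f1 down to WT replicates 2 and 3 at the lower left. In these 2 libraries Esrrb (r = 0.41) and Klf4 (r = 0.17) stay within the range of the 10 others. Over those 10 libraries r is 0.72 for Esrrb and -0.42 for Klf4.

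The 25 other pluripotency genes examined, from Sox2 to Jam2, stood lower in WT as a list but gave no call. Of the 24 tested, 0 passed the adjusted threshold in WT against ET by edgeR, 13 were lower unadjusted (15.1% of all genes tested) and 9 passed 2-fold (2.76% of all genes), with a median log2 fold change of -1.23. The largest values were those of Dppa2 (-2.76, standard error 1.09, adjusted p = 0.135) and Dppa3 (-2.29, standard error 0.90, adjusted p = 0.135), both early embryonic and germ line genes. Dppa2 read 2.10, 0.59 and 5.00 CPM in ET and 1.12 CPM in WT replicate 1, and had no count in WT replicates 2 and 3. In the comparisons of the libraries labelled K238R and of K412R with WT, 0 of 24 passed and the medians were 0.54 and 0.39. There the largest values were those of Dppa3 (1.28) and Dppa2 (1.18), and of Zscan10 (1.40, standard error 0.74, adjusted p = 0.281) and Tdgf1 (1.37, standard error 0.74, adjusted p = 0.290).

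Genes of the later, formative and primed states of pluripotency held 1 call. Of 11 tested, Fgf5, a growth factor of the post-implantation epiblast, was higher in K412R than in WT (log2 fold change 2.14, standard error 0.48, edgeR adjusted p = 0.0446), beside 2.04% of all genes called in that comparison. Fgf5 read 6.69, 6.56 and 6.96 CPM in K412R and 3.04, 0.67 and 0.86 CPM in WT, and it also read 4.21, 9.67 and 7.89 CPM in ET. With each library left out in turn, 9 of 12 fits lost that call, with adjusted p up to 0.202, and DESeq2 kept it (adjusted p = 0.000401). In WT against ET 0 of 11 passed, the median was -0.64 and the largest values were those of Nodal (-2.41, standard error 0.58, adjusted p = 0.100), a ligand of the early embryo, and Fgf5 (-2.24, standard error 0.48, adjusted p = 0.0972). In the libraries labelled K238R against WT 0 of 11 passed, with Nodal at 1.45 and Fgf5 at 1.44.

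Of the 7 genes of LIF signalling, the pathway that keeps ES cells undifferentiated in culture, Il6st, the shared receptor subunit gp130, was higher in K412R than in WT (0.48, standard error 0.10, edgeR adjusted p = 0.0329). In that comparison 2.04% of all genes tested were called. Il6st read 227, 207 and 205 CPM in K412R, 158, 147 and 147 CPM in WT and 166, 182 and 143 CPM in ET. Leaving out each library in turn lost the call in 7 of 12 fits (adjusted p up to 0.148), and DESeq2 kept it. The receptor is used in many tissues. In the other comparisons with WT 0 of 7 passed, and the medians were -0.09 for WT against ET and -0.04 for the libraries labelled K238R against WT. Pim1 (-0.75) and Socs3 (-0.42) had the largest values in WT against ET, and Pim1 (0.35) and Socs3 (0.31) again in the libraries labelled K238R against WT. The list had no common direction, with 3 of the 7 genes above 0 and 4 below in each of these 2 comparisons.

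The sums of proliferation and germ cell genes were also highest in ET replicate 3. The 12 proliferation genes summed to 2177 CPM in ET replicate 3 and 564 CPM in WT replicate 3, their highest and lowest libraries, and in WT against ET 0 of 12 passed the adjusted threshold by edgeR while 12 were lower unadjusted, beside 15.1% of all genes tested, with a median of -1.04. Cenpf (-1.22) and Ccnb1 (-1.22) had the largest values. The 12 germ cell genes summed to between 108 and 204 CPM in ET, 82.3 and 105 CPM in WT, 147 and 147 CPM in the libraries labelled K238R and 104 and 130 CPM in K412R. Of the 11 germ cell genes tested 0 passed the adjusted threshold in WT against ET, 6 were lower by 2-fold and unadjusted p (2.76% of all genes tested), and Stra8 (-4.14, standard error 0.91, adjusted p = 0.0972) and Dazl (-3.71, standard error 0.92, adjusted p = 0.100) had the largest values. Dazl read 25.2, 3.13 and 34.0 CPM in ET, 3.94, 0.22 and 0.57 CPM in WT, 8.73, 11.9 and 14.01 CPM in the libraries labelled K238R and 3.23, 7.86 and 4.38 CPM in K412R. Stra8 read 1.18, 0.056 and 0.057 CPM in WT, and Dmrt1 had no count in WT replicate 2 and 0.11 CPM in WT replicate 3. Stra8 and Dmrt1 were thus near 0 in the same 2 libraries in which 6 of the members were low. In WT against ET, 10 of the 11 tested germ cell genes had a log2 fold change below 0, with a median of -1.06. Not every gene of the list was near 0 in these 2 libraries. Kit read 63.7, 56.9 and 66.2 CPM in WT and 52.8, 62.3 and 55.04 CPM in ET. Mael read 8.77, 10.04 and 7.13 CPM in WT and 8.98, 14.9 and 9.28 CPM in ET. Ddx4, a helicase of germ cells, read 2.81, 3.18 and 1.60 CPM in WT and 3.70, 3.89 and 3.61 CPM in ET. Its WT libraries all lay below its ET libraries, a separation found in 11.4% of all genes tested. The part of germ cells and of dividing cells in the levels of the members was not tested.

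Epithelial lists did not follow the members. The 10 squamous genes summed to between 37.6 and 99.9 CPM in ET, 102 and 128 CPM in WT, 52.9 and 76.3 CPM in the libraries labelled K238R and 106 and 164 CPM in K412R, with the lowest sum in ET replicate 3, where Klf4 was lowest too. In WT against ET 0 of 9 passed, the median was 0.88 and Krt6a (1.23) and Krt14 (1.08) were largest, and in the libraries labelled K238R against WT 0 of 9 passed, with Krt6a (-1.62) and Dsg3 (-1.47) largest. The 8 genes of simple epithelium had their 3 highest sums in K412R (507 to 676 CPM), the group in which the mean of Klf4 was highest too, and 0 of 8 passed in any comparison with WT. In K412R against WT their median was 0.52, with Krt18 (0.81, standard error 0.21, adjusted p = 0.0656) and Cldn4 (0.76) largest, and the squamous median was 0.26, with Grhl3 (0.51) and Trp63 (0.38) largest. The part of epithelium in the level of Klf4 was not tested.

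Gut epithelium and trophoblast genes were scarce. The 8 gut genes summed to between 12.7 and 24.2 CPM, and 0 of 6 tested passed in any comparison with WT. In WT against ET, 3 of the 6 lay above 0 and 3 below, with a median log2 fold change of -0.25. The largest values there were those of Cdx2 (-1.87), with no count in WT replicate 3, and Cdh17 (1.04). The 8 trophoblast genes, whose lineage ES cells rarely enter, summed to between 1.23 and 23.9 CPM. Prl3b1, a placental hormone, was called higher in K412R than in WT by edgeR (adjusted p = 0.0454), beside 2.04% of all genes tested. It read 0.61, 1.81 and 0.62 CPM against 0, 0.11 and 0 CPM, and 10 of the 12 leave-one-out fits lost this call. Prl3d1 had no count in any WT library and reached 2.37 CPM in replicate 1 of the libraries labelled K238R.

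**Figure D5:**
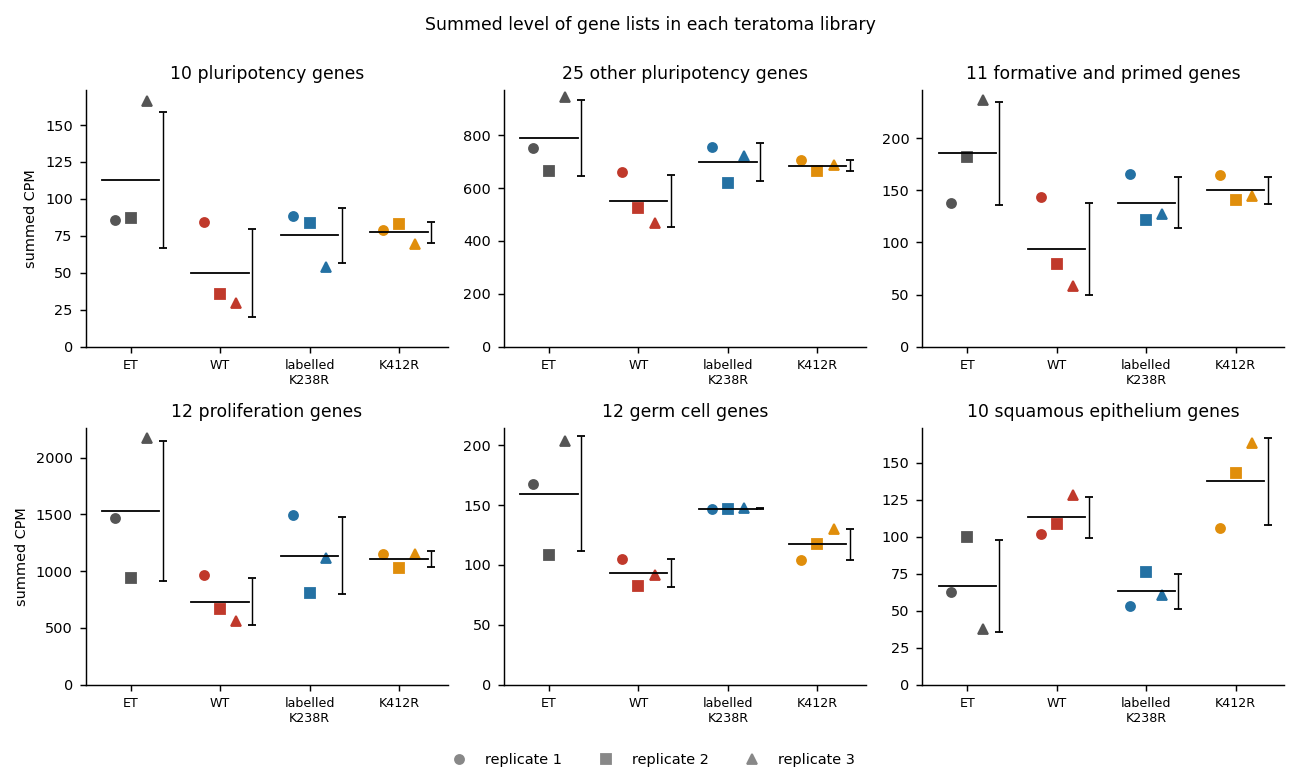
Summed CPM (linear axis from 0) of the 10 members and 5 other gene lists in the 12 libraries, by group, with symbols for the replicate number, a line at the group mean and a bar for 1 SD either side (n = 3). The members, the other pluripotency genes, the formative and primed genes and the proliferation genes are highest in ET replicate 3 and lowest in WT replicate 3, while the squamous genes are lowest in ET replicate 3 at 37.6 CPM.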

How the data were processed

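Poly(A) RNA of 12 teratomas (4 groups of 3, grouped by title) was sequenced with the CORALL V2 kit. The authors trimmed reads with fastp, aligned them with STAR and deposited Salmon's estimated counts per gene, not normalized, and the deposited values are whole numbers. The submitters' processing notes also name GATK and the build GRCm39. Use of molecular identifiers and strand in counting is not given in the sources used here. Members were matched by symbol and were all listed.

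Counts were scaled to CPM of the library total for levels. For tests, all 12 libraries entered edgeR 4.0.16 (R 4.3.3) with TMM scaling, filterByExpr (18405 of 38986 genes kept) and a robust quasi-likelihood fit with 1 mean per group, and p-values were adjusted by Benjamini-Hochberg over all genes tested. The study's methods name DESeq2, run here (1.42.0) as an alternative together with other size factors, no filter, pairs of groups alone, a replicate block and each library left out. Called means adjusted p under 0.05, and the 2-fold count also asks for unadjusted p under 0.05. Correlations used log2 CPM with a prior count of 2 and 100000 2-sided permutations. The test code was checked on simulated counts. Promoter windows and transcript lengths come from RefSeq GRCm38.p6 and GENCODE M21, not from the build of the counts, and were joined by symbol only.

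The members and lists were chosen with earlier results of these data known. The text names all members and the 5 genes whose profile is most like that of Pou5f1. Of each other list it names the genes called in a comparison with WT. Otherwise it names the 2 with the largest log2 fold change where a result turns on them. Dmrt1, Ddx4, Kit, Mael, Lin28a, Sall4 and Sox2 are named outside this rule. The labels do not say whether the 3 teratomas of a group came from separate animals or cultures, so p-values measure only the spread between these libraries, which may be partly technical. Replicates differed by more than counting noise. Depth was even between libraries, and values under about 10 counts, in WT replicates 2 and 3 and for Prdm14, carry the largest counting error.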

Additional observations from a re-analysis of the deposited data

How the results depend on the processing

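In WT against ET the count of called members (0 of 9) became 1 with DESeq2, lay between 0 and 6 when each library was left out in turn (1 without ET replicate 2, 6 without WT replicate 1), and became 7 without ET replicate 2 and WT replicate 1 together, a fit in which 37.4% of all genes were called. That pair was chosen after seeing the data, because each is the nearest library of the other, so the counts without it describe the remaining libraries and do not replace the main counts. The count for the libraries labelled K238R against WT (0) lay between 0 and 2 (2 without WT replicate 1) and was 6 without the pair (11.6% of all genes), that for K412R against WT (0) between 0 and 4 (4 without WT replicate 1) and 6 without the pair (18% of all genes), and that over the 4 groups (0) became 1 with DESeq2, between 0 and 2 (2 without WT replicate 1), and 7 without the pair (29.6% of all genes). Against ET, the libraries labelled K238R and K412R stayed at 0 under every alternative. The 2-fold count for WT against ET (4) was 1 with no filter and 1 with the 2 groups alone, between 1 and 7 with each library left out, and 7 without the pair. For the libraries labelled K238R against WT (1) it was 0 with no filter and 0 with the 2 groups alone, between 0 and 6, and 7 without the pair, and for K412R against WT (1) it was 0, 0, between 0 and 6, and 6. For the libraries labelled K238R against ET (0) it was 5 without the pair, and for K412R against ET (0) it was 1 with the 2 groups alone, between 0 and 2, and 5 without the pair. The summed level of the members in K412R moved from 77.4 to 87.3 CPM when the most abundant RNA, Gm26917 (7.47% to 13.9% of a library), was left out of the total. Leaving it out raises the CPM of every library. In K412R the shift exceeded the SD of the group, the smallest of the 4 (6.91 CPM), and in the other groups it stayed under their SD. With each library left out, the log2 fold change turned sign for Esrrb in WT against ET (-0.69 to 0.055, above 0 without ET replicate 3), for Klf4 in WT against ET (-0.054 to 0.18, below 0 without ET replicate 3 and, at -0.00019, without WT replicate 1), and in the libraries labelled K238R against WT without their replicate 2 for Klf4 (-0.0052 to 0.14) and Tfcp2l1 (-0.11 to 0.27). The cause of these moves was not tested. By Pearson r the count of members related to Pou5f1 (5) lay between 5 and 6 with another prior count and with each library left out. By Spearman's rho it was 1 over the 12 libraries, and 0 over the 10 without WT replicates 2 and 3.

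Whether the replicate numbers pair the libraries is not settled by the values. Deviations from the group means correlated above 0.1 in 7 of 18 pairs with the same number and in 7 of 36 with different numbers. The median r was 0.07 for pairs with the same number and -0.04 for the others. The main fit does not pair the libraries. With the replicate block the counts of called members stayed at 0 and the 2-fold counts were 3, 1 and 1 in the comparisons with WT, while the genes called in all rose from 9 to 926 in WT against ET.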

Other observations

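The 5 genes outside all lists whose log2 CPM profile over the 12 libraries was most like that of Pou5f1, of 16322 genes with a mean of at least 1 CPM, were Fau (Pearson r = 0.976), Car4 (r = 0.976), Rbpms2 (r = 0.971), Rplp2 (r = 0.969) and Hmga1b (r = 0.965). They were picked as the highest of many, so the values of r are a description with no test, and all 12 points share the 2 low WT libraries. Fau and Rplp2 encode ribosomal proteins, and their levels moved little: Fau lay between 178 and 288 CPM and Rplp2 between 212 and 362 CPM. Car4, a membrane-bound carbonic anhydrase, read 33.8, 42.9 and 60.7 CPM in ET, 26.1, 6.91 and 4.68 CPM in WT, 34.8, 22.2 and 22.6 CPM in the libraries labelled K238R and 39.4, 31.5 and 37.4 CPM in K412R. Rbpms2, an RNA-binding protein, read 28.5, 21.2 and 41.0 CPM in ET and 20.8, 7.25 and 4.74 CPM in WT. Hmga1b, a chromatin protein of embryonic and dividing cells, read 65.0, 62.7 and 88.2 CPM in ET and 66.7, 25.9 and 23.0 CPM in WT.

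Among the 45 pairs of members, the Pearson r of log2 CPM over the 12 libraries had a median of 0.64. Among the 21 pairs that leave out Klf4, Tfcp2l1 and Esrrb, a choice made after the values were seen, the median was 0.93. Klf4 was the least like the other members, with a median r of 0.03, and its lowest value, -0.51, was with Esrrb. A pair of other pluripotency genes with levels in the range of Pou5f1, chosen after their values were seen, had the same low libraries: Lin28a read 32.7, 4.74 and 2.62 CPM in WT and 27.9, 32.7 and 72.4 CPM in ET, and Sall4 read 21.6, 4.63 and 2.80 CPM in WT and 23.0, 25.9 and 49.1 CPM in ET. Sox2, which neural tissue also expresses, did not share them to that extent, with 143, 108 and 97.3 CPM in WT and 159, 124 and 176 CPM in ET.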
